A study of Mus musculus with 12 samples.

Results

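The genes that control C18-4 cells express, and those they leave silent, were read from the 6 control libraries of a series of 12. C18-4 is an immortalised cell line established from mouse type A spermatogonia, and per the labels the strain of origin is IRC mouse. Total RNA was sequenced after transfection with virus, in 4 groups of 3 libraries called 3NC, 5NC, 8276KD and 8276OV. Inhibition of the long noncoding RNA lncRNA8276 defines 8276KD and its overexpression defines 8276OV. The labels do not spell out 3NC and 5NC, which are taken here as the control viruses of the inhibition and the overexpression. Every group therefore carries a virus, no uninfected cells were analysed here, and all libraries come from a single immortalised line. All 17576 genes of the deposited table were described, by level and not by response. A gene was called expressed where the mean of its 6 control values reached 1 and silent otherwise. Values are per transcript length and were read as FPKM (fragments relative to transcript length and sequencing depth), and levels below are on that scale, as means ± SD over the 6 libraries unless stated. Of 1685 symbols in 84 gene lists, 1455 genes were matched, and 229 symbols were not analysed here.

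Spermatogonial stem cells sit on the wall of the seminiferous tubule and renew themselves under GDNF, a growth factor secreted by neighbouring somatic cells and read through the co-receptor GFRA1 and the kinase RET. Their identity is kept by transcription factors such as PLZF (Zbtb16), ETV5, ID4 and BCL6B, and germ cells as a whole carry RNA-binding proteins such as DDX4 and DAZL. The somatic cells of the testis have their own programs: Sertoli cells nurse the germ cells, Leydig cells make androgens, and peritubular myoid cells contract around the tubule. The gonad is covered by mesothelium, a flat epithelium that carries both keratins and vimentin.

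Markers of the labelled origin were matched in part. Of 26 genes of undifferentiated spermatogonia analysed, 10 were expressed (38.5%), Etv5 and Id4 among them, and 16 were silent, including Gfra1, Ret, Zbtb16, Nanos2, Nanos3 and Bcl6b. Ddx4 and Dazl were silent as well, with highest values of 0.030 and 0.040 in any control library. The list with the highest share of expressed genes among the 26 lineage lists was that of mesothelium, with 20 of 25. The share was 30.6% over all lineage lists and 63.6% over all genes of the table. No other name is given to the cells on these grounds, and they are called control C18-4 cells throughout. In bulk RNA, fewer cells of a type and less RNA per cell cannot be told apart.

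Column sums ranged from 552310 to 554527 in 3NC and from 533099 to 539746 in 5NC. An estimate of depth from the size of the smallest nonzero values gave 10.3 M to 11.7 M fragments per library. Between 11107 and 11165 genes reached a value of 1 in a library. Pearson's r of log2(value + 1) was 0.998 to 0.999 within a control group and 0.989 to 0.990 between 3NC and 5NC. Whether the 3 libraries of a group stem from different cultures is not stated. The p-values below cover the spread among libraries within groups, pooled over all 4 groups, be it biological or technical. The level of lncRNA8276 was not analysed here.

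Expressed genes numbered 11187 and silent genes 6389, of which 1290 were listed at 0 in all 6 control libraries. The promoters of these classes differed in composition. RefSeq promoter windows (GRCm38.p6) were found for 13760 genes, and the 250 bases before the start were read. The CG dinucleotide, the target of DNA methylation in mammals and a mark of CpG island promoters, occurred a median of 17 times before the 9022 expressed genes with a window and 5 times before the 4738 silent ones. Windows are shown for an abundant gene, the highest mesothelial marker, the highest gene of the pan germ cell list and 2 silent germ cell genes. Capitals mark CG dinucleotides.
Eef1a1, chr9:78481725-78481974, minus strand: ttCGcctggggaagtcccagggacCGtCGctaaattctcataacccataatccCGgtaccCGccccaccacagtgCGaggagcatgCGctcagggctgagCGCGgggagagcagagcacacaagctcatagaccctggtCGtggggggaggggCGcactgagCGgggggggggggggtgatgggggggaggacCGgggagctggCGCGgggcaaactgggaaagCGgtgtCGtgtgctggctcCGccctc
Upk3b, chr5:136038246-136038495, plus strand: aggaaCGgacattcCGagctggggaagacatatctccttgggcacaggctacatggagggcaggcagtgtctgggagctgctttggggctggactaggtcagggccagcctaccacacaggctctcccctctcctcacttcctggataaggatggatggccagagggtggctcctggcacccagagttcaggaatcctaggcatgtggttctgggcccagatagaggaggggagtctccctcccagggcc
Tex19.1, chr11:121145893-121146142, plus strand: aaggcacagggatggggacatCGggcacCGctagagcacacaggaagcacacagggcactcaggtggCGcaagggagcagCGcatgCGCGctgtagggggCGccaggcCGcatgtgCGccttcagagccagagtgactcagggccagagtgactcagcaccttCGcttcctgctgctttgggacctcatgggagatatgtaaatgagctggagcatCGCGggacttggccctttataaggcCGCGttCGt
Ddx4, chr13:112652311-112652560, minus strand: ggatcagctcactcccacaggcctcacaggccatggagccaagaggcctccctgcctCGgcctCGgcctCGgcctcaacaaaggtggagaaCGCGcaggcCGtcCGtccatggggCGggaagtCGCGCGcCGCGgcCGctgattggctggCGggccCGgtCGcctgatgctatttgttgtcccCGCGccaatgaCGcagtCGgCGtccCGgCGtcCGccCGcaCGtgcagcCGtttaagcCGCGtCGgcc
Prm1, chr16:10796824-10797073, minus strand: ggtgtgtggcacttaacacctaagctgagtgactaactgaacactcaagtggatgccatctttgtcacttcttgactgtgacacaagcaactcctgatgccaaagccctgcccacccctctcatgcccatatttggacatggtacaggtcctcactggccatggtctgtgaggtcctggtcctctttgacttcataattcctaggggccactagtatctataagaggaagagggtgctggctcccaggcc

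These windows hold 18, 2, 15, 31 and 0 CG dinucleotides in the order shown. Upk3b was among the highly expressed genes with a CG-poor window, and Ddx4, the germ cell helicase gene, was silent with a CG-rich one. The 12 silent spermatid genes with a window had a median of 2 CG dinucleotides, and the 13 silent pan germ cell genes had 16. By level, the medians were 3 for genes listed at 0 throughout, 5 for other silent genes, 15 for genes from 1 to below 10, and 17 or 18 above that. The letters TATAAA, on either strand, stood in 5.73% of expressed and 13.6% of silent windows, and in 8.44% of all. GGGCGG, the core of the GC box, stood in 62.4%, 30.4% and 51.4%, and CCAAT in 37.8%, 34.4% and 36.6%. These are matches of letters within 250 bases, given as a description.

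**Figure D1:**
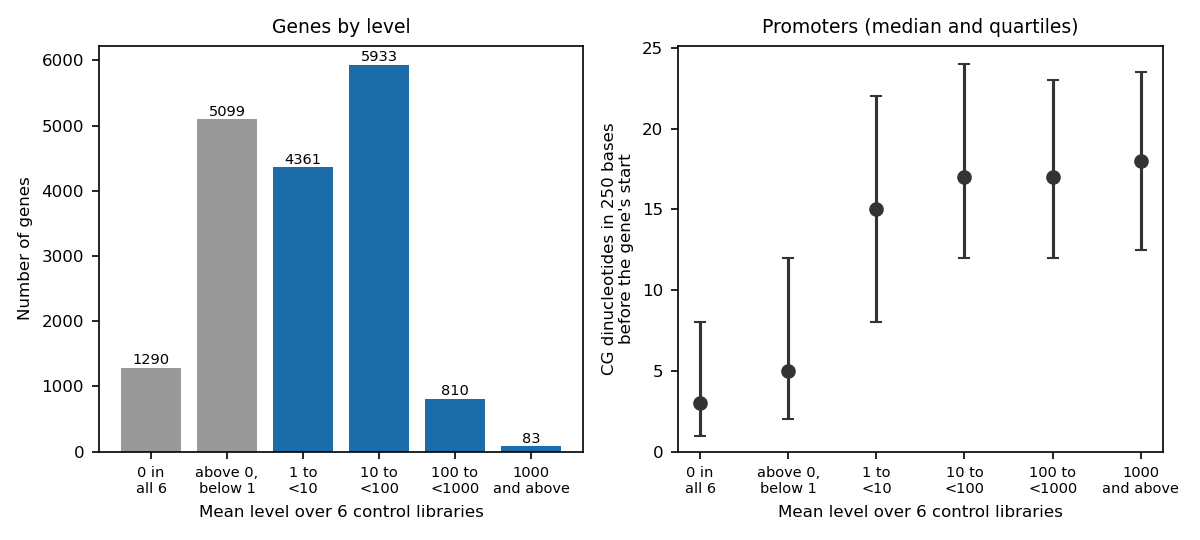
Left, number of genes by mean level over the 6 control libraries, with silent genes in grey and expressed genes in blue. Right, CG dinucleotides in the 250 bases before the start by the same level classes, with median (point) and quartiles (bar). The median rises from 3 to 15 between genes listed at 0 and genes from 1 to below 10, and lies at 17 or 18 above.

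The most abundant transcripts were those of protein synthesis. Eef1a1, which delivers aminoacyl-tRNA to the ribosome, was highest (gene 13627, chr9:78478453-78481724), at 6188, 6104 and 5971 in the 3NC libraries and 5431, 5407 and 5460.2 in the 5NC libraries. Ribosomal protein genes took 22 of the top 30 places, led by Rpl23a at 3863 ± 519.6, Rpl41 at 3434 ± 192 and Rps2 at 3070.4 ± 67.9. The other 8 were Eef1a1, Zfp972 (3556 ± 283), the cyclophilin gene Ppia (3254 ± 116), the glycolytic gene Gapdh (3086 ± 575), Tpt1 (2459.7 ± 245), the ferritin light chain gene Ftl1 (2417 ± 40.8), Gm46255 (1830.1 ± 408) and the chaperone gene Hsp90ab1 (1784 ± 106). The 30 genes together took 12.8% to 14.3% of the column sum of a library, and all 86 ribosomal protein genes 19.11% to 21.4%. Ribosomal protein genes, Eef1a1, Gapdh and Ppia have many processed copies in the genome, and how reads shared with them were counted is not given in the sources used here. Their values, and those of Zfp972 and of predicted genes named Gm or LOC, are therefore uncertain.

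**Figure D2:**
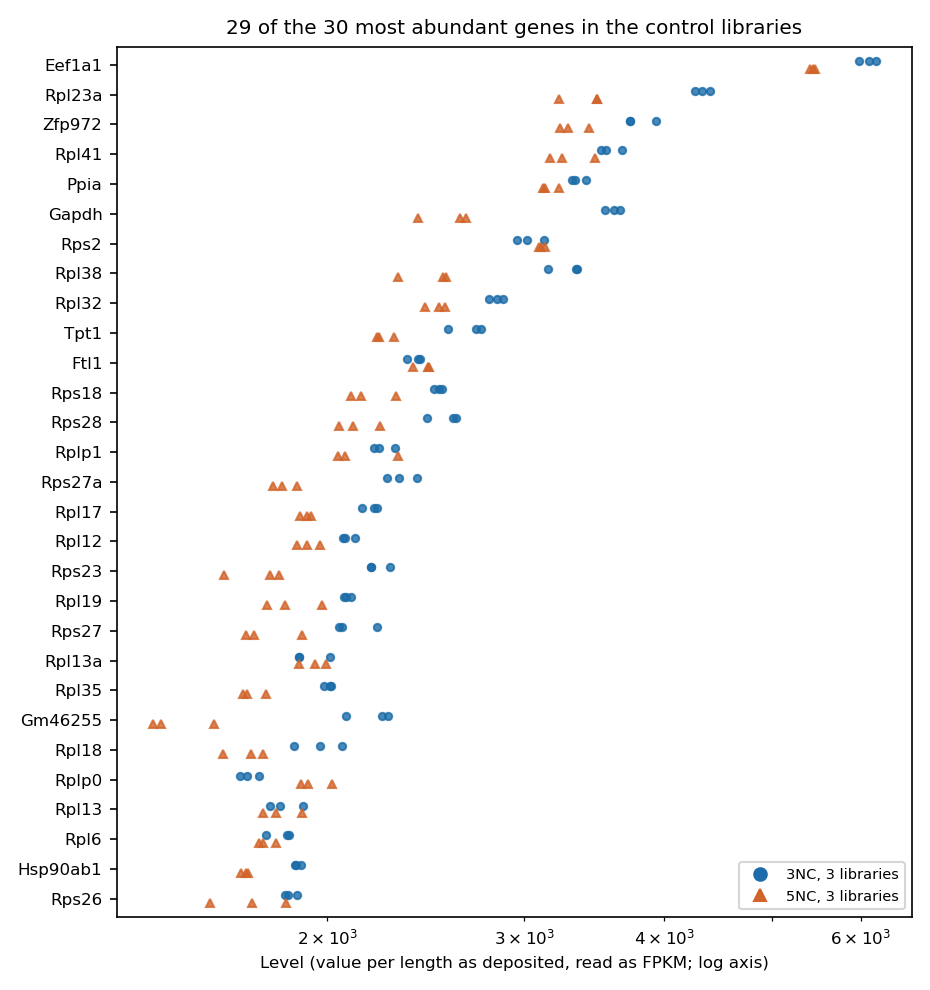
Level (log axis) of 29 of the 30 genes with the highest mean over the control libraries, with a circle per 3NC library and a triangle per 5NC library. Eef1a1 stands above the others, and Gapdh and Gm46255 lie apart in the 2 groups.

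The 5 highest genes after these were taken outside the lists and, by name alone, outside ribosomal protein and mitochondrial genes. Among them, Ptma, a small acidic nuclear protein gene, was at 1616 ± 84.1 and Npm1, the nucleolar chaperone gene, at 1585 ± 38.1. The other 3 were LOC105244208 (1750.4 ± 243), annotated as a transcribed pseudogene, and the predicted genes Gm46008 (1498 ± 294) and Gm46310 (1443 ± 203). What these 3 encode, if anything, was not checked. All 83 genes with a mean of at least 1000 took 24.996% to 27.9% of the column sums. All 29 genes of the actin cytoskeleton and thymosins were expressed. Actg1 (1339 ± 53.6) and Actb (1219 ± 36.5) encode the nonmuscle actins, and Cfl1 (1261 ± 69.3) and Pfn1 (829 ± 105) encode proteins that turn filaments over. Tmsb10, which sequesters actin monomers, was at 1046 ± 132. Iron storage and redox genes were all expressed (20 of 20), with Fth1 at 1599 ± 42.4 and the glutathione transferase gene Gstp1 at 856 ± 182. Of 24 genes of S100 proteins, annexins and galectins, 20 were expressed, with Lgals1 (1549.7 ± 239), S100a6 (1192 ± 68.2) and S100a11 (933 ± 45.2) highest.

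Extracellular matrix transcripts were abundant but uneven. Of 27 secreted matrix and matricellular genes, 25 were expressed, led by Sparc, a collagen-binding glycoprotein, at 949 ± 339.8, and Serpinh1, the collagen chaperone, at 379.9 ± 79.8. Col1a1, the gene of the alpha 1 chain of type I collagen, was at 259.6, 249 and 259.96 in the 3NC libraries and 383, 381 and 378 in the 5NC libraries. Col1a2, the gene of its partner chain, was silent, at 0.040, 0.010 and 0 in the 3NC libraries and 0.58, 0.55 and 0.49 in the 5NC libraries. The values of Col1a1 exceeded those of Col1a2 in each of the 6 libraries, and Postn, the other silent member, was at 0.103. Of 15 intermediate filament genes, 10 were expressed, led by Vim, the mesenchymal filament gene, at 536 ± 18.3. Krt19 (231 ± 21.7) and Krt18 (64.02 ± 4.77), both keratins of simple epithelia, were expressed beside it. Their partner Krt8 was at 1.72 ± 0.2897. A processed pseudogene of Krt8 matches 941 of the 1958 bases of its transcript at 98.6% identity, so the low value of Krt8 is uncertain. Prph, a filament gene of peripheral neurons, was at 80.7 ± 26.6.

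Among undifferentiated spermatogonia genes, the highest values belonged to surface proteins shared with many cell types. Itgb1, an integrin chain, was at 277, 273 and 264 in the 3NC libraries and 288, 296 and 289 in the 5NC libraries, and Cd9, a tetraspanin, at 107, 100.2 and 98.4 in the 3NC libraries and 65.7, 60.3 and 58.98 in the 5NC libraries. Cd9 was lower in every 5NC library than in any 3NC library. Gpr125 (listed as Adgra3), an adhesion receptor, was at 10.997 ± 1.17, Itga6 at 5.01 ± 0.667 and Upp1, a uridine phosphorylase, at 5.698 ± 1.16. Among transcription factors of the list, Etv5 was at 7.82, 7.89 and 7.72 in the 3NC libraries and 2.7, 3.52 and 3.07 in the 5NC libraries. Foxo1, Epcam, Id4 and Eomes were the other expressed members, chosen after their values were seen, at 3.92 ± 0.559, 2.19 ± 0.428, 1.42 ± 0.224 and 1.34 ± 0.189. Gfra1 and Ret, through which GDNF itself is read, were near 0: Gfra1 ranged from 0.090 to 0.17, and Ret was listed at 0 in all 6 control libraries. Of 5 receptor genes of the wider GDNF family analysed, 1 was expressed, and it was higher in 5NC. Zbtb16 ranged up to 0.040 and Bcl6b up to 0.020. Nanos2, an RNA-binding regulator of the stem cell state, was listed at 0 in all 6, and Nanos3 reached 0.32. The highest mean of a silent member was 0.22, so these calls did not lie near the threshold.

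Later germ cell stages gave few transcripts too. Of 8 genes of differentiating spermatogonia, Prdm9, which marks recombination sites, was the only one expressed, at 3.37 ± 0.3603. Kit and Stra8, which respond to retinoic acid, were listed at 0 in every control library. Of 17 spermatid genes, Odf2 (24.5 ± 1.99) and Crem (5.47 ± 0.639) were expressed, and the protamine and transition protein genes Prm1, Prm2, Tnp1 and Tnp2 were listed at 0. Odf2 also has a role at the centrosome of somatic cells. Of 20 pan germ cell genes, 3 were expressed, against 63.6% of all genes.

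Some germ cell genes stood out by level. Tex19.1, which restrains transposons in germ cells and placenta (gene 73679, chr11:121146143-121148314), was at 103, 100.03 and 101 in the 3NC libraries and 76.4, 66.9 and 67.2 in the 5NC libraries. All 3 values of 5NC lay below those of 3NC. Piwil2, an argonaute of the piRNA pathway, was at 1.4, 1.57 and 1.26 in the 3NC libraries and 5.4, 5.67 and 5.09 in the 5NC libraries, and the 5NC values were the higher ones. Tex15, a piRNA pathway gene, was at 2.01 ± 0.351. Of 18 meiosis genes, 6 were expressed: Stag3, a meiotic cohesin subunit, at 61.3 ± 2.57, Syce2, a synaptonemal complex gene, at 51.8 ± 3.67, Ythdc2 at 7.18 ± 0.705, Mybl1 at 5.17 ± 0.776, Mlh3 at 4.73 ± 0.248 and Sycp1 at 1.02 ± 0.276. Their partners in meiotic chromosomes were silent, with Sycp3 at 0.243, Syce3 at 0.075, Hormad1 at 0.00833, Spo11 at 0.0367, and Dmc1, the meiotic recombinase gene, listed at 0. Pluripotency genes were split as well, with 5 of 16 expressed. The Klf5, Klf2 and Klf4 factors were at 7.995, 7.66 and 6.26, while Pou5f1 and Tdgf1 were listed at 0 and Esrrb was at 0.0167. Nanog was at 1.53 ± 0.304, and a processed pseudogene matches 245 of the 2211 bases of its transcript at 97.6% identity.

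Testis somatic lists gave a mixed picture. Of 23 Sertoli genes, 9 were expressed. Ctsl, a lysosomal protease gene with wide expression, was at 518 ± 169, Wt1 at 51.3 ± 1.27, Wnt4 at 7.62 ± 1.69, Gata4 at 5.69 ± 0.707, Clu at 4.81 ± 2.23 and Sox8 at 2.12 ± 1.04. The silent members numbered 14, among them Sox9, a sex determination factor, at 0.00333, Amh at 0.0433, Dhh at 0.242, Nr5a1 at 0.0133, Dmrt1 at 0.0050 and Cldn11 at 0.00667. Of 10 Leydig genes, 5 were expressed, among them Scarb1 (33.2 ± 1.12), which takes up cholesterol. Cyp11a1, which makes the first steroid, was listed at 0, and Cyp17a1 was at 0.00667. Of 12 peritubular myoid genes, 7 were expressed, with Tagln at 54.9 ± 1.95, Smtn at 24.3 ± 1.61, Acta2 at 14.9 ± 7.05 and Des at 8.96 ± 2.73, while Myh11, the smooth muscle myosin gene, was at 0.045. Wt1 was expressed and belongs to the Sertoli, mesothelial and kidney lists alike.

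Mesothelial genes had the highest share of expressed members among the lineage lists, which were chosen with earlier results of these data known. The list is not exclusive to mesothelium: it shares Krt7, Krt8, Krt18, Krt19 and Cdh1 with the simple epithelial list, and Wt1 and Podxl with the kidney list. It also shares Krt7, Krt8 and Krt18 with the trophoblast list, Wt1 with the Sertoli list and Tcf21 with the fibroblast list. Rspo1 is shared with the granulosa list and Cdh1 with the undifferentiated spermatogonia list. Upk3b, a uroplakin of the mesothelial surface (gene 100647, chr5:136038496-136044993), was at 242, 233 and 244 in the 3NC libraries and 782, 789 and 804 in the 5NC libraries. Its 5NC values all lay above those of 3NC. Ezr, which ties membrane to actin, was at 355 ± 79.8, Crip1, a LIM protein, at 266 ± 12.5, Pdpn, a mucin-like surface protein, at 149 ± 43.9, and Efemp1, a fibulin, at 124 ± 54.1. Msln, the gene of mesothelin, was chosen after its values were seen and stood at 77.6, 79.5 and 79.8 in the 3NC libraries and 92.4, 91.98 and 93.9 in the 5NC libraries. Gpm6a, a membrane glycoprotein, was at 29.5, 29.96 and 27.04 in the 3NC libraries and 73.8, 78.6 and 75.3 in the 5NC libraries, and Lrrn4, a leucine-rich repeat protein, at 1.32, 1.04 and 1.28 in the 3NC libraries and 9.02, 8.82 and 8.04 in the 5NC libraries. Both were higher in all 3 libraries of 5NC. The 5 silent members were Calb2 (0.0167), Muc16 (0.555), Cdh1 (0.0317), Igfbp5 (0.00167) and Aldh1a2 (0.0050). Muc16 was split between groups, at 0.060, 0.060 and 0.070 in the 3NC libraries and 0.95, 1.09 and 1.1 in the 5NC libraries. Summed over the 25 genes, the list took 0.3298% ± 0.00185 of the column sum in 3NC and 0.527% ± 0.00192 in 5NC (SD, n = 3). The spermatogonia list took 0.0744% ± 0.00186 in 3NC and 0.0721% ± 0.00121 in 5NC. Such sums are weighted to the highest members, here Upk3b, Ezr and Crip1 in the mesothelial list and Itgb1 and Cd9 in the spermatogonia list.

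**Figure D3:**
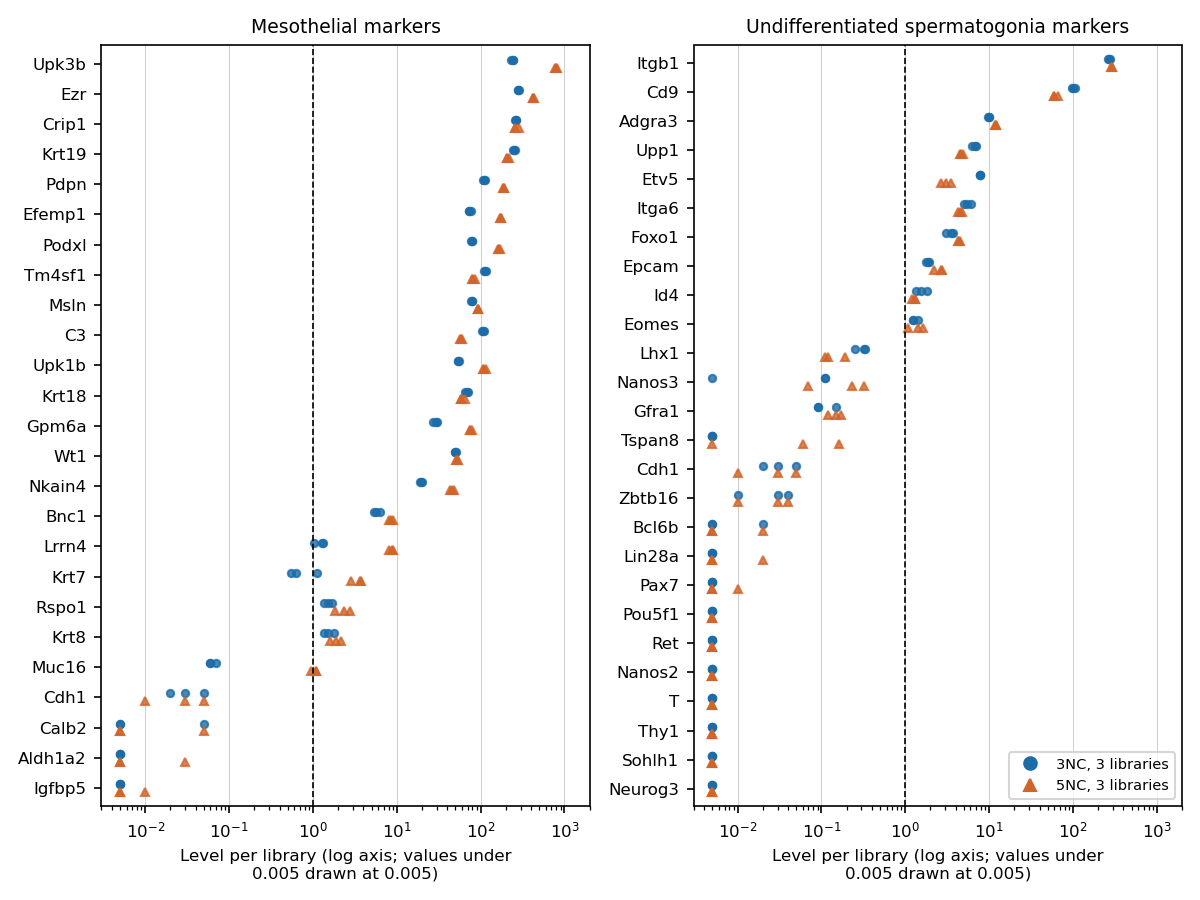
Level (log axis, values under 0.005 drawn at 0.005) of every analysed member of the mesothelial and undifferentiated spermatogonia lists, with a circle per 3NC library and a triangle per 5NC library and the threshold of 1 as a dashed line. Most mesothelial genes lie right of the line, and Gfra1, Ret and Zbtb16 lie left of it in every library.

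Fibroblast genes were expressed in 15 of 23 cases (65.2%), the next highest share after mesothelium among the lineage lists. The share was 30.6% over all lineage lists and 63.6% over all genes of the table. Beside Vim and Col1a1, S100a4 was at 304 ± 13.9, Fbln2 at 178 ± 63.8, Col3a1 at 76.8 ± 44.7 and Dcn, a matrix proteoglycan, at 66.8 ± 49.5. Thy1, a surface marker of fibroblasts and also of spermatogonial stem cells, was listed at 0, and Fap was at 0.040. Simple epithelial genes were expressed in 8 of 24 cases. The cadherins differed from each other: Cdh3, the placental cadherin gene, was at 19.5, 19.2 and 19.9 in the 3NC libraries and 65.5, 66.3 and 65.5 in the 5NC libraries, and Cdh1, the epithelial one, was at 0.050, 0.020 and 0.030 in the 3NC libraries and 0.050, 0.030 and 0.010 in the 5NC libraries. Tight junction and epithelial regulator genes such as Cldn3 (0.010), Cldn4 (0.0333), Cldn7 (0.0133) and Grhl2 (0.165) were silent.

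Marker lists of other tissues were mostly silent. None of 11 pan leukocyte and lymphoid genes was expressed, with Ptprc at 0.00333 and a highest mean of 0.698, that of Coro1a. Of 11 macrophage genes, Cd68 was expressed at 3.61 ± 1.66, and Csf1r was at 0.0417. The endothelial list had 2 of 15 (Egfl7 7.79 ± 1.04, Flt1 6.39 ± 0.591), with Cdh5 listed at 0. Neuronal genes were expressed in 3 of 14 cases and liver and gut genes in 2 of 15, and Rbfox3 and Alb were listed at 0. Single high genes stood in otherwise silent lists: Lpl, a lipase, at 155 ± 37.6 in the adipocyte list (3 of 11), Spp1, the gene of osteopontin, at 116 ± 71.97 in the bone and cartilage list (3 of 12), and Podxl at 122 ± 47.1 in the kidney list (5 of 17). In all, 114 of 373 lineage genes were expressed (30.6%).

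**Figure D4:**
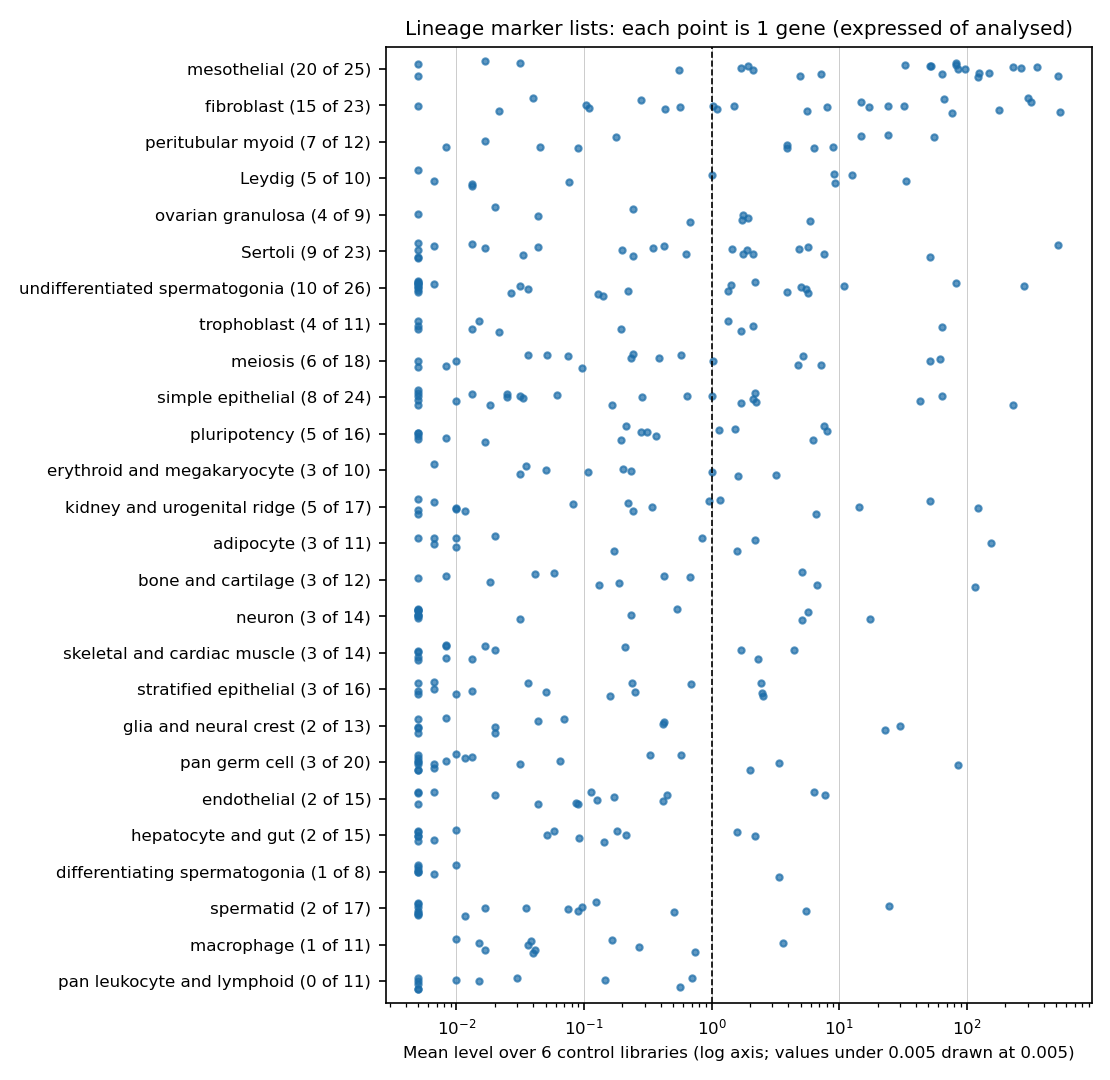
Mean level over the 6 control libraries (log axis, values under 0.005 drawn at 0.005) of each gene in the 26 lineage lists, ordered by the share expressed, with the threshold of 1 as a dashed line. The mesothelial list (20 of 25 expressed) is at the top, and the leukocyte list (0 of 11) at the bottom.

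Genes of the listed transcription factor families had low to moderate levels. Factors outside these families, such as Trp53, are not counted here. Of 245 analysed, 131 were expressed (53.5%), 51 had a mean over 10 and none over 100. The effectors of the Hippo pathway, which senses cell contact and tension, were on: Tead2 at 83.97 ± 2.01, Tead1 at 27.1 ± 4.46, and the coactivators Yap1 and Wwtr1 (TAZ) at 34.9 ± 2.82 and 39.9 ± 2.48. Cbfb, the partner of RUNX factors, was at 61.9 ± 4.42. AP-2 genes Tfap2a, Tfap2b and Tfap2c were silent, the last, a germ cell factor, at 0.0133. All 12 SMAD and TCF/LEF genes were expressed, led by Smad4 at 43.4 ± 3.07, the shared SMAD of the TGF-beta and BMP branches. Of 16 regulators of the epithelial to mesenchymal transition, 11 were expressed, with Tcf3 (38.7 ± 5.28), Twist1 (14.9 ± 0.897), Tcf4 (9.03 ± 1.09), Zeb1 (8.76 ± 0.331), Prrx2 (8.597 ± 2.87) and Zeb2 (6.48 ± 1.26) highest. The silent ones included the epithelial factors Grhl2, Ovol1 (0.0617) and Ovol2 (listed at 0), and the splicing factor Esrp1 (0.0183).

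Lineage factors divided within families. Of 5 GATA genes, 4 were expressed: Gata6, a factor of mesoderm and endoderm, at 17.7 ± 3.47, Gata3 at 6.53 ± 0.113, Gata4 at 5.69 ± 0.707 and Gata2 at 4.897 ± 0.611, while the erythroid factor Gata1 was at 0.203. Sox4 (20.5 ± 8.35) and Sox12 (19.96 ± 4.58) led the SOX family (5 of 13), and Sox7 and Sox10 were listed at 0. Foxm1, a factor of the G2 and M phases, led 22 of 36 forkhead genes at 69.2 ± 5.94. Pax genes with their homeobox and Eya partners were expressed in 6 of 17 cases, T-box genes in 5 of 15 and POU genes in 4 of 11. Nuclear receptors, which bind lipids and hormones, were expressed in 23 of 45 cases, with Nr1h2 (29.7 ± 3.66), Rarg (29.6 ± 1.17), Thra (28.6 ± 3.02), Ppard (20.3 ± 4.93), Rxrb (18.2 ± 3.52) and Vdr (17.8 ± 0.591) highest. Close relatives of these were silent, with Thrb listed at 0, Rarb at 0.0283 and Ppara at 0.443. Of interferon and cytokine factors, 12 of 16 were expressed, led by Stat3 (40.8 ± 5.19) and Irf1 (35.6 ± 1.49), and the lymphoid Irf4, Irf8 and Stat4 were silent.

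Receptors set which signals a cell can read, and 130 of 317 were expressed (41%). Receptor tyrosine kinases were on in 32 of 56 cases. Axl, the receptor of Gas6, was at 84.99, 80.9 and 81.4 in the 3NC libraries and 69.2, 70.7 and 71.7 in the 5NC libraries. Ddr1 (62.6 ± 12.9) and Ddr2 (36.6 ± 5.19), which bind collagen, Epha2 (58.7 ± 3.05), which binds ephrins, and the pseudokinases Ptk7 (43.7 ± 8.102) and Ryk (38.5 ± 3.999) followed. Tnfrsf12a, the receptor of TWEAK, was the only receptor gene over 100, at 212, 199.9 and 215 in the 3NC libraries and 231, 215 and 214 in the 5NC libraries. Tnfrsf1a (52.9 ± 3.13) and Ltbr (47.97 ± 10.8) were next of 8 expressed among 25 TNF receptor genes. Bmpr1a (26.3 ± 1.27), Tgfbr2 (19.2 ± 4.26) and Tgfbr1 (10.1 ± 2.06) led the TGF-beta superfamily receptors (9 of 14), and Amhr2, which directs loss of the Mullerian duct, was at 0.313.

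Of 19 Wnt receptor genes, 13 were expressed, near the share over all genes, with Fzd6 at 29.1 ± 10.8, Lrp5 at 25.2 ± 1.42 and Lrp6 at 13.4 ± 1.73, while the stem cell receptor Lgr5 was at 0.00167 and the Wnt receptor ligase Rnf43 was listed at 0. Notch and Hedgehog receptors were expressed in 8 of 10 cases. Notch2 and Notch3 were at 7.01 ± 0.565 and 3.897 ± 1.28, and Notch4, best known from endothelium, was silent at 0.080. Smo, the transducer of Hedgehog signals, was at 40.4 ± 8.99, and Ptch1 at 2.38 ± 0.362. Cytokine receptors were on in 23 of 41 cases, led by Ifnar2 (60.4 ± 5.36) and Crlf2 (37.9 ± 7.35), and the interleukin 2 receptor chains Il2ra, Il2rb and Il2rg were silent. Plxnb2 (98.6 ± 8.896) and Unc5b (89.5 ± 2.34) led the guidance receptors (9 of 21).

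G protein-coupled receptors were the sparsest class. None of 17 chemokine receptors was expressed, and 4 of 43 receptors of amines and peptides were: Pth1r (2.29 ± 0.289), Calcrl (2.14 ± 0.293), Adrb3 (1.88 ± 0.368) and Adrb1 (1.46 ± 0.581). Adrb1 was at 0.91, 0.98 and 0.92 in the 3NC libraries and 1.88, 1.92 and 2.15 in the 5NC libraries, so its call depends on the group. Receptors of lipids, nucleotides and proteases were expressed in 8 of 32 cases, with F2r, the thrombin receptor, at 55.4, 53.4 and 52.5 in the 3NC libraries and 77.9, 83.3 and 78.96 in the 5NC libraries. Adhesion receptors were expressed in 10 of 27 cases, with Adgra2 at 19.2 ± 1.302 and Adgre5 at 14.6 ± 0.632. At a threshold of 0.5 in place of 1, 8 amine and peptide receptors and 1 chemokine receptor were above it.

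Of 257 ligands, 108 were expressed (42%). Mif, a cytokine made by most cells, was at 743, 703 and 742 in the 3NC libraries and 509.7, 486 and 502 in the 5NC libraries, and the chemokine Ccl2, which draws monocytes, was at 241, 215 and 248 in the 3NC libraries and 230.5, 229 and 229 in the 5NC libraries. No other ligand had a mean over 100. Csf1, the macrophage growth factor, was at 86.6 ± 33.6, Cxcl1 at 38.6 ± 13.3, Ccl5 at 38.4 ± 2.495 and Clcf1 at 21.4 ± 0.743. Il10 and Il1a were silent, at 0.010 and 0.0433. In the TGF-beta superfamily (11 of 25), Gdf15, a stress cytokine, was at 61.2 ± 22.5, Tgfb1 at 15.8 ± 3.57 and Bmp4 at 14.5 ± 6.24. Manf, a protein of the endoplasmic reticulum that is also secreted, led the neurotrophic list at 72.7 ± 25.9. Gdnf itself was silent, at 0.90, 0.77 and 0.70 in the 3NC libraries and 0.44, 0.47 and 0.50 in the 5NC libraries, with both groups below 1 throughout.

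Growth factor families were expressed in part. Fgf21, an endocrine FGF, was at 8.76, 9.5 and 8.98 in the 3NC libraries and 59.9, 62.1 and 63.5 in the 5NC libraries, and the groups did not overlap. Fgf18 (6.07 ± 3.83), Fgf5 (3.97 ± 2.05) and Fgf11 (2.18 ± 0.698) were the other expressed FGF genes of 17, and Fgf2, which supports cultured spermatogonial stem cells, was at 0.213. Gas6 (54.6 ± 27.3), Vegfa (52.4 ± 2.79) and Vegfb (25.6 ± 4.22) led the list of PDGF, VEGF, IGF and related factors, in which Hgf and both insulin genes were listed at 0. Hbegf (16.2 ± 6.65) and Nrg1 (7.34 ± 2.55) led the EGF family (6 of 11). Wnt genes were expressed in 11 of 19 cases, with Wnt11 at 14.3 ± 3.94, Wnt4 at 7.62 ± 1.69 and Wnt9a at 7.19 ± 2.68. Ephrins were expressed in 7 of 8 cases and semaphorins, netrins and Slits in 20 of 28. Sema3c (31.8 ± 12.6) and Slit3 (31.3 ± 16.2) were highest in that group.

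Ligand and receptor pairs were read side by side, for 57 pairs chosen after values were seen. Both partners were expressed in 33, the ligand alone in 12, the receptor alone in 9 and neither in 3. The last group held Gdnf with Gfra1 and with Ret, and Amh with Amhr2. Gas6 at 54.6 stood beside its receptors Axl (76.5), Tyro3 (12.5) and Mertk (1.19), and Tnfsf12 (TWEAK) at 17.2 beside Tnfrsf12a (215). Ligands without their receptor included Csf1 (Csf1r at 0.0417), Ccl2 (Ccr2 at 0.010), Bdnf at 12.9 (Ntrk2 listed at 0) and Kitl at 1.44 (Kit listed at 0). Receptors without their ligand included Met at 24.3 (Hgf listed at 0), Tnfrsf1a (Tnf at 0.0283) and Ptch1 at 2.38 (Dhh at 0.242). Dhh is also counted with Smo, which transduces Hedgehog signals and is not the receptor that binds them. The counts depend on which pairs were listed. They are counts of pairs, and a ligand or receptor can stand in several. Vegfa counts as ligand alone with Kdr (0.413) but as matched with Flt1 (6.39). Il6st counts as receptor alone with Osm (0.005) but as matched with Lif (9.055). An unmatched pair therefore does not mean that a gene lacks any expressed partner.

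Metabolic genes were expressed in 148 of 251 cases (59%). In glycolysis 16 of 23 were on, and after Gapdh came Pkm (889.7 ± 244), Aldoa (698 ± 194), Ldha (691 ± 314), Pgk1 (679 ± 219.6) and Tpi1 (669.97 ± 135). The tissue forms Pklr (0.0050, liver and red cells), Pgam2 (0.653, muscle), Gapdhs (0.125, sperm) and Ldhc (listed at 0, testis) were silent. Ldhb, the form of lactate dehydrogenase common in heart, was at 0.767, and the level of Ldha was 603 to 1175 times that of Ldhb in the 6 libraries. A processed pseudogene matches 1002 of the 1304 bases of the Ldhb transcript at 98.0% identity, so this ratio is uncertain. Slc2a1, the widespread glucose transporter, was at 34.9 ± 19.5, Hk1 at 23.3 ± 7.43 and Hk2 at 9.18 ± 3.08, while the transporters Slc2a2, Slc2a3, Slc2a4 and Slc2a5 were silent. The lactate exporter Slc16a3 was at 90.1 ± 53.8, and Pdk4, which blocks pyruvate dehydrogenase, was listed at 0.

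Lists of amino acid metabolism differed in the share expressed. Of 27 serine, glycine and one-carbon genes, 21 were expressed, with the serine synthesis genes Psat1 (249 ± 3.85), Phgdh (206 ± 41.7) and Psph (115 ± 23.98) and the mitochondrial folate genes Shmt2 (148 ± 39.97) and Mthfd2 (134 ± 35.6) highest. The liver enzymes Gldc (0.010), Bhmt (listed at 0) and Mat1a (0.00667) were silent. Of 23 glutamine, aspartate and proline genes, 22 were expressed, with asparagine synthetase (Asns) at 274, 260.4 and 264 in the 3NC libraries and 371, 368 and 354 in the 5NC libraries. The 5NC values of Asns were all higher. The amino acid exchanger made of Slc7a5 and Slc3a2 was at 113 ± 40.8 and 159 ± 50.4. Genes of amino acid breakdown were expressed in 14 of 27 cases and those of the urea cycle and polyamines in 9 of 17. Odc1, the entry to polyamines, was at 160.2 ± 15.2, and the urea cycle genes Cps1 (0.0117), Otc (listed at 0) and Arg1 (0.00833) were silent.

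Steroid and retinoid genes bear on the testis directly. Of 16 steroid genes, 8 were expressed, with Tspo, a mitochondrial membrane protein, at 137 ± 8.33 and Por, the electron donor of microsomal P450 enzymes, at 55.6 ± 18.7. The P450 enzymes of the pathway, Cyp11a1, Cyp11b1, Cyp17a1 and Cyp21a1, were silent. Retinoic acid drives spermatogonia into differentiation. Its synthesis gene Aldh1a1 was at 78.98, 78.5 and 75.95 in the 3NC libraries and 85.7, 88.7 and 87.8 in the 5NC libraries, while Aldh1a2 and Aldh1a3 were at 0.0050 and 0.162 and the degrading enzymes Cyp26a1, Cyp26b1 and Cyp26c1 were silent. Cyp1b1, which oxidises steroids and retinoids among others, was the highest P450 gene of families 1 to 4, at 109.5 ± 12.9, and Cyp1a1 was at 0.0050.

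The comparison of 5NC with 3NC asks how far the baseline holds from one control virus to the other. limma on log2(value + 1) called 56.5% of the 11360 genes tested (30.6% higher in 5NC and 25.9% lower), with a median difference of 0.022, and 301 genes differed by more than 1 on the log2 scale. Groups did not overlap in 69.5% of genes. A call of a member is read against these shares. Mesothelial genes were higher in 14 and lower in 3 of 21 tested, with a median of 0.60. Glycolytic isoenzymes were lower in 15 and higher in 1 of 16, with a median of -0.68. Matrix genes were higher in 15 and lower in 7 of 25 (median 0.55), Wnt genes higher in 9 and lower in 1 of 11 (0.51), and genes of glutamine, aspartate and proline higher in 12 and lower in 3 of 22 (0.44). Undifferentiated spermatogonia genes were higher in 3 and lower in 4 of 10 (median -0.064). With quantile normalization, with libraries rescaled to equal sums and after removal of the GC trend, these counts moved by at most 1 gene per direction.

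Single members differed several-fold between control groups. Upk3b went from 239.6 ± 6.09 in 3NC to 791 ± 11.4 in 5NC (SD, n = 3; log2 difference 1.72, SE 0.0558, limma adjusted p = 3.13e-11). Lrrn4 differed by 2.12 (SE 0.0682) and Fgf21 by 2.64 (SE 0.07598, limma adjusted p = 1.23e-11). Dcn was at 21.7, 22.2 and 20.9 in the 3NC libraries and 112, 115 and 109 in the 5NC libraries, a log2 difference of 2.32, and Gas1, a coreceptor of Hedgehog, was at 2.22, 1.96 and 2.1 in the 3NC libraries and 14.8, 13.1 and 14.1 in the 5NC libraries, a difference of 2.28. Each of these 5 genes was higher in all 3 libraries of 5NC. Ldha was at 987, 959 and 987 in the 3NC libraries and 391.8, 409 and 414 in the 5NC libraries, a log2 difference of -1.27 (SE 0.0371, limma adjusted p = 1.30e-11). Slc16a3 and Slc2a1 were lower in 5NC, with log2 differences of -1.74 and -1.57. Spp1 was at 187, 185 and 172 in the 3NC libraries and 48.1, 51.3 and 51.8 in the 5NC libraries, a log2 difference of -1.83. Areg, an EGF family ligand, had a log2 difference of -1.82 with a pseudocount of 1 and of -2.78 with 0.1, since the added 1 shrinks differences of low genes.

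Among the germ cell genes that were expressed, Cd9 and Etv5 were lower in 5NC, with log2 differences of -0.72 and -1.11 (SE 0.0515 and 0.0893, limma adjusted p = 7.42e-08 and 2.34e-07). Tex19.1 was lower too (log2 difference -0.53, SE 0.0697, limma adjusted p = 2.46e-05), and Piwil2 was higher by 1.41 (SE 0.0865, limma adjusted p = 1.52e-08). Id4 differed by -0.17 (limma adjusted p = 0.225) and was not called. Of the 30 most abundant genes, 20 were lower and 1 higher in 5NC. With libraries rescaled to equal sums 17 were lower and 1 higher, and after removal of the GC trend 23 were lower and 1 higher of 29 tested. With quantile normalization, however, 5 were lower and 7 higher, so no direction is read for them. Gapdh was lower in 5NC in each of these settings (log2 difference -0.49, SE 0.0782).

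**Figure D5:**
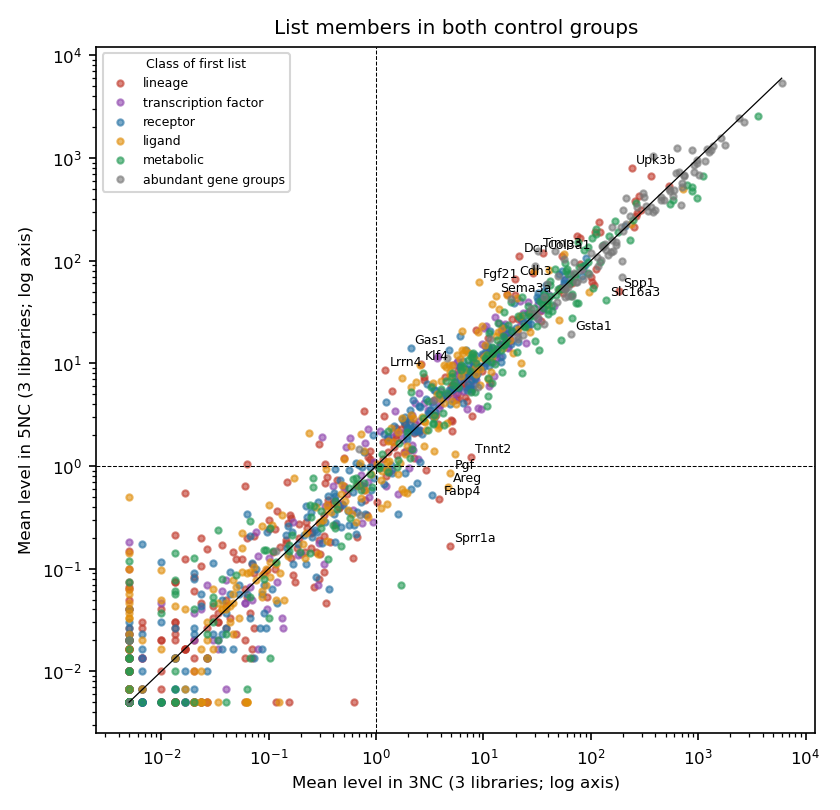
Mean level of list members in 3NC (x) and 5NC (y), both on log axes, with values under 0.005 drawn at 0.005, coloured by class; the solid line marks equal levels and dashed lines the threshold of 1. Most members lie near the line, and Upk3b, Dcn, Fgf21 and Gas1 lie above it while Spp1 and Slc16a3 lie below.

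Few genes changed their call between groups. Of all genes, 78 had all 3NC values at or above 1 and all 5NC values below it, 19 of them list members, and 104 had the opposite pattern, 18 of them list members. Genes at or above 1 in all 12 libraries of the series made up 60.0% of the table and genes below 1 in all 12 made up 34.2%. In the 8276KD and 8276OV libraries, 65 genes called expressed in the controls stayed below 1 in all 6, among them 12 list members, and 4 silent genes reached 1 in all 6, of which 1 was a list member. Gfra1, Ret and Zbtb16 did not exceed 0.17, 0.010 and 0.040 in any of the 12 libraries, and Ddx4 and Dazl did not exceed 0.030 and 0.050. Upk3b was at 367, 412 and 381 in 8276KD and 457, 536 and 486 in 8276OV, and its lowest value over 12 libraries was 233. Of the 25 mesothelial genes, 18 were at or above 1 in all 12 libraries, and of the 26 spermatogonia genes 9 were.

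The threshold of 1 is a convention. The list members just below it were Nrp2 (0.925), Adra1b (0.927), Foxc2 (0.945), Eya1 (0.96) and Bdkrb2 (0.978), and those just above it were Grhl1 (1.0), Slc2a9 (1.01), Gp1bb (1.01), Btc (1.01) and Nr2f1 (1.01). Eya1, a phosphatase that works with homeobox factors, owed its mean to 5NC, at 0.28, 0.31 and 0.29 in the 3NC libraries and 1.66, 1.41 and 1.81 in the 5NC libraries, and Bdkrb2, the bradykinin receptor, to 3NC, at 1.67, 1.75 and 1.42 in the 3NC libraries and 0.44, 0.32 and 0.27 in the 5NC libraries. Their calls depend on the group that is read.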

How the data were processed

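The table the authors deposited holds 17576 genes and a value per library. The unit is not named in labels or header, and the deposited values were read as FPKM from their range and steps, though TPM is possible. Per the submitters' processing notes, the genome build is mm10. For the aligner, the quantifier and the treatment of shared reads, the sources used here give nothing. Coordinates and promoters are those of RefSeq on GRCm38.p6, the same assembly, and a RefSeq entry was found for 17458 genes. Values were used as deposited. The depth per library was estimated from the smallest nonzero values of genes with transcripts up to 1500 bases. Levels have no test. 5NC was compared with 3NC using limma 3.58.1 in R 4.3.3 on log2(value + 1), for genes of at least 1 in at least 3 libraries, in a joint fit of all 12 libraries (eBayes with trend and robust), two-sided, with Benjamini-Hochberg adjustment over the 11360 genes and a threshold of 0.05. The procedure was also run on simulated data with independent noise and few changed genes, which gives no error rate for the real data. An exact permutation test of 3 against 3 libraries cannot go below p = 0.1. Copies were searched with BLAST 2.17.0. Alternatives changed the threshold, the pseudocount, the filter, the scaling, the GC trend, the replicate block and the libraries included. Members and lists were chosen with earlier results of these data known. Named genes are the 30 most abundant, per list up to 6 highest expressed and up to 6 first-listed silent members, up to 3 called members with the largest separated differences, the 5 on each side of the threshold, and up to 5 abundant genes of no list; other names were chosen after values were seen. A few genes that this rule names are not reported here.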

Additional observations from a re-analysis of the deposited data

How the results depend on the processing

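The number of expressed genes (11187) ranged from 10446 at a threshold of 2 to 11730 at 0.5, and from 11173 to 11191 with a library left out. The mean share of the column sum in the 30 most abundant genes (13.5%) was 14.2% in 3NC alone and 8.98% when values were multiplied by transcript length, which weights long transcripts, and ranged from 13.4% to 13.7% with a library left out. Calls of 5NC against 3NC (6414) ranged from 5364 with a filter at 5 to 7513 with the 6 control libraries alone, and from 5592 to 5703 with a library left out. Same-numbered libraries of 3NC and 5NC deviated together only weakly (correlations of 0.041, 0.088 and 0.046). With 3 libraries per group, this cannot decide whether the replicate numbers pair the samples. Each library correlated best with its own number, a hint from the data and not the design, and the replicate block gave 6380 calls. Of 233 genes assessed, 24 lost a call in some setting. With quantile normalization 3 had the opposite sign: Ppia at 0.22, Rpl12 at 0.037 and Rpl32 at 0.069. Apart from the scaling, the cause was not tested. For lists, a threshold of 2 moved 12 of the 84 counts by over 1.5 times, and leaving out a library moved 1, that of Wnt antagonists (1 expressed without 5NC replicate 2, against 2). Values below 1 rest on few fragments at this depth.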

Other observations

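The genes below were chosen after their values were seen. The Y-linked gene Eif2s3y was at 0.10, 0.030 and 0.060 in the 3NC libraries and 0, 0 and 0.15 in the 5NC libraries, and its X-linked counterpart Eif2s3x at 97.3, 94 and 92.4 in the 3NC libraries and 73.3, 73.2 and 72.5 in the 5NC libraries. Cell cycle genes were expressed, with Mki67, a marker of dividing cells, at 43.4 ± 5.43. Cdkn2a, which encodes inhibitors of cyclin-dependent kinases and of MDM2, was at 116 ± 10.5, and Trp53, which encodes p53, at 126 ± 9.59.

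Zfp972, a zinc finger gene, ranked among the 30 most abundant genes at 3727, 3732 and 3936 in the 3NC libraries and 3283, 3231 and 3426 in the 5NC libraries. Eno1b and Eno1 were at 514 ± 116 and 486 ± 106, and their transcripts share 1736 bases at 99.5% identity. Gm4737 and Ahcy were at 148 ± 3.55 and 5.87 ± 0.3404, and share 2083 bases at 99.7% identity, so reads of each pair cannot be assigned with certainty. Nos2, the inducible nitric oxide synthase gene, was at 1.89, 1.76 and 1.48 in the 3NC libraries and 0.040, 0.090 and 0.080 in the 5NC libraries, with no overlap between groups.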
